A study of Homo sapiens with 12 samples.

Results

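The comparison described here asked which transcripts differed in MDA-MB-231-ERβ cells treated with 17β-estradiol (E2) relative to cells given the ethanol vehicle. It rests on 6 of the 12 RNA-seq libraries of the series, 3 labelled E2 and 3 labelled vehicle, and on 11303 genes whose RPKM came to 1 or more in 3 or more of the 12 libraries, out of 12451 distinct entries of the count table. MDA-MB-231 is a mesenchymal triple-negative breast cancer line, and the cells carried a doxycycline-inducible full-length estrogen receptor β (ERβ). They were grown with doxycycline in charcoal-stripped serum, so that the vehicle libraries also come from cells induced to make the receptor. The vehicle group received ethanol and the E2 group 1 nM E2, both for 5 days. The 6 remaining libraries served for reference: 3 from cells given vehicle plus TNFα at 20 ng/ml for the final 3 h (the TNFα group) and 3 from cells given E2 and TNFα (the E2 + TNFα group). All 12 libraries come from this single engineered line, the receptor is driven by an inducible transgene, and no group without doxycycline was analysed here. Doxycycline is missing from the treatment field of the E2 + TNFα libraries, although the protocol given for every library includes it. The libraries of a group come from cells plated in triplicate dishes, and the methods describe in vitro work in general as done with at least 3 biological replicates. The labels do not say that the 3 libraries of a group are from separate experiments, so p-values measure the spread between these samples, which may be technical.

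Estrogen receptors are ligand-activated transcription factors of the nuclear receptor family. On binding E2 they dimerise, bind estrogen response elements (EREs) or other factors already on DNA, and recruit coactivators or corepressors. ERβ, encoded by ESR2, is the less studied of the pair of estrogen receptors. In breast cells the best known estrogen targets encode growth regulators, secreted proteins such as TFF1 and the receptor cofactor GREB1. Estrogen receptors are also known to oppose NFκB, the factor through which TNFα induces cytokines and chemokines.

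ESR2 (hg38 chr14:64172925-64338550, minus strand), the gene supplied by the transgene, was read at 486, 457 and 474 CPM (the read count scaled to library size, with TMM normalisation) in the 3 vehicle libraries and at 322, 304 and 293 CPM in the 3 E2 libraries. Every E2 library was lower, but the difference of -0.62 ± 0.12 on the log2 scale (SE, n = 3 and 3) did not reach the size required here. ESR2 was therefore abundant in both groups. Under TNFα it read 282, 255 and 228 CPM, and under E2 + TNFα 433, 405 and 508 CPM.

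The vehicle libraries stood apart from the other 9 in how their levels ran with GC content. They held 35769865 to 39943664 counted reads, against 7652016 to 15755240 in the E2 libraries, 19504540 to 30499211 under TNFα and 16790200 to 36729990 under E2 + TNFα. Every vehicle library was deeper than every E2 library, and 1 E2 + TNFα library lay within the vehicle range of depth. Across genes, Spearman's rho of a library's deviation from the gene mean with GC content was -0.73 to -0.63 in the vehicle libraries and -0.11 to 0.74 in the other 9, at 0.74 in that deep E2 + TNFα library. The methods of the study name a correction between batches, but no label used here says which batch a library belongs to, so a batch and the vehicle group cannot be told apart. A gene was called when its log2 fold change was at least 1.5 in size, its p was under 0.05 and its Benjamini-Hochberg adjusted p was at most 0.1 in edgeR's quasi-likelihood test, and "rose" and "fell" are used below for called genes only. By that rule 1116 genes rose and 2331 fell with E2, 30.5% of those tested (9.87% higher and 20.6% lower). Separation of the groups alone was commoner still: the 3 E2 libraries lay all above the 3 vehicle libraries for 39.0% of genes and all below for 41.8%. The changes followed base composition. Among the 2261 genes with the lowest GC content over their exons (32.5 to 42.0%), 23 rose and 1426 fell, with a median log2 fold change of -1.91, whereas among the 2261 with the highest (59.0 to 76.6%) 427 rose and 44 fell, with a median of 0.76. By exon length there were 460 rises and 200 falls among the 2261 shortest genes and 68 rises and 876 falls among the 2261 longest. Across genes, which are not independent replicates, Spearman's rho of the log2 fold change was 0.655 with GC content and -0.376 with length.

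To weigh each gene class against this trend, the smooth dependence of each library on GC content and then on length was removed and the test repeated. The calls dropped to 1574, 13.9% of genes (829 or 7.33% higher, 745 or 6.59% lower), and among the genes lowest in GC content they became 234 rises and 144 falls. The genes called in the same direction both ways numbered 1036, of which 479 rose and 557 fell. With 1 unwanted factor estimated from 20 housekeeping genes in the fit (the RUV factor), 1538 genes were called relative to vehicle, 557 of them among the 3447, and 70 of the 120 called genes named here were called in the same direction. The trend value given below comes from a separate pair of smooth curves. These were fitted to the log2 fold changes of all genes tested, on GC content and then on length. A class whose median lies near its trend value moved about as far as genes of like GC content and length did. E2 in the presence of TNFα gave a reading without the vehicle libraries, because the comparison of E2 + TNFα with TNFα shares no library with that of E2 with vehicle. There 401 genes rose (3.55%) and 227 fell (2.01%), 5.56% in all, and rho of the log2 fold change with GC content was -0.21.

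**Figure D1:**
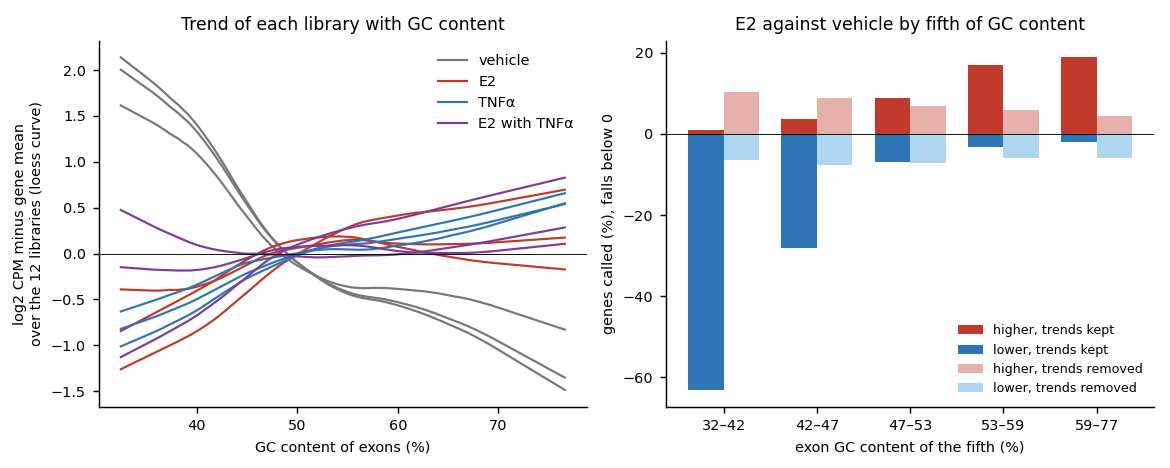
Trend of the libraries with GC content and its removal. Left, smoothed log2 level of each of the 12 libraries relative to the mean of all libraries against exon GC content in percent, coloured by group; right, percent of genes called higher (above 0) and lower (below 0) in each of 5 classes of genes by GC content, with trends kept and with trends removed. The lowest class had 1426 falls with trends kept and 144 with trends removed.

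Most markers of other cell types stayed below the filter. The 12 defining markers of MDA-MB-231 were all tested, with a summed level of 6840 to 6970 CPM in vehicle and 10900 to 12200 CPM in E2. The members did not move together, as 2 rose (KRT8 and KRT18) and 3 fell (ANXA1, EGFR and ZEB1). Their median log2 fold change was 0.15. Of 12 immune markers only CD8A, CD68 and LYZ passed the filter (91.3 to 98.6 CPM summed in vehicle, 104 to 110 in E2), of 8 endothelial markers only ESAM (41.2 to 44.3 against 13.8 to 15.3 CPM), and of 8 fibroblast markers only COL1A1 and PDGFRB (20.4 to 22.8 against 5.7 to 8.61 CPM). Among 12 luminal markers 7 passed, and ESR1, PGR, FOXA1, TFF3 and SPDEF did not. The summed luminal level was 479 to 539 CPM in vehicle, 2360 to 3450 in E2, 671 to 716 in TNFα and 2250 to 2780 in E2 + TNFα. KRT19 alone made up most of that sum (261–317 CPM in vehicle and 2028–3113 CPM in E2), and ERBB2, GATA3, EPCAM and XBP1 did not pass relative to vehicle.

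Each called gene was also placed by the order of the 12 libraries. In the first order all 3 vehicle libraries lay beyond the other 9 on the same side, so that the TNFα libraries, which had no E2, sat with the E2 libraries. Over all genes this order held for 30.4% with vehicle lowest and 35.2% with vehicle highest. In the second order the 6 libraries with E2 lay beyond the 6 without, which held for 11.8% of genes with E2 higher and 7.48% with E2 lower. Of the 1116 genes that rose, 953 showed the first order, 549 the second, and 215 also rose with E2 in TNFα-treated cells. Of the 2331 that fell, 2257 showed the first, 300 the second, and 75 also fell in TNFα-treated cells. The difference of the E2 effects with and without TNFα was itself called for 3593 genes (31.8%), and it ran against the change for 595 of the rises and 2020 of the falls. Over the genes called in both comparisons, 290 of 343 had the same direction, and 294 of 315 once the trends were removed.

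**Figure D2:**
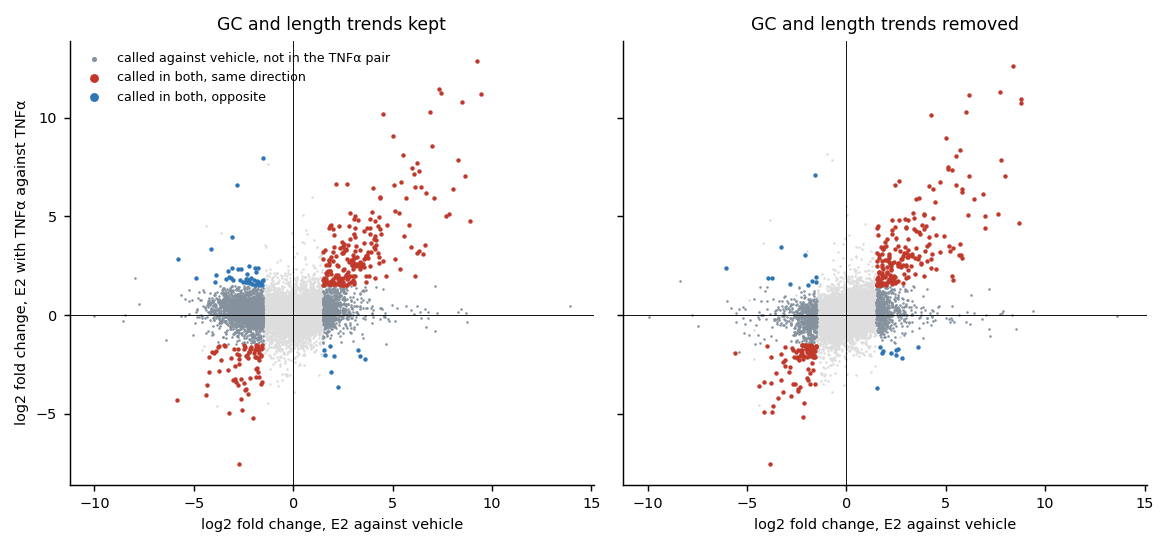
The E2 effect relative to vehicle (x axis, log2 fold change) against the E2 effect in TNFα-treated cells (y axis, log2 fold change), 1 point per gene, with trends kept (left) and removed (right). Of the genes called relative to vehicle, 215 of 1116 rises and 75 of 2331 falls were also called in the same direction in TNFα-treated cells, and 290 of the 343 genes called in both comparisons lie in the same direction.

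Genes that moved with E2 in both settings included estrogen-response genes, secreted cystatins, keratins and other epithelial genes. Of 55 estrogen-response genes, 40 were tested; 15 rose and 5 fell, and in TNFα-treated cells 13 rose and 2 fell. The median log2 fold change was 0.95, against -0.02 over all genes and a trend value of 0.32, and with trends removed 13 rose and 3 fell. All 15 genes that rose had the 6 libraries with E2 above the 6 without. GREB1 (hg38 chr2:11534116-11642788, plus strand), a chromatin-bound cofactor of estrogen receptors, was at 3.29, 3.43 and 3.61 CPM in vehicle, 45, 48.3 and 61.7 in E2, 4.61, 3.69 and 4.06 in TNFα and 50.3, 49.5 and 58.5 in E2 + TNFα. All 6 libraries with E2 were thus above all 6 without, whether or not TNFα was present, and the rise over vehicle was 3.90 ± 0.17 on the log2 scale (SE, edgeR adjusted p = 7.21e-11), with a trend value of -0.26. SYBU, which encodes syntabulin, a linker of kinesin to transported cargo, read 0.701, 1.13 and 0.941 CPM in vehicle and 23.7, 16.6 and 19.8 CPM in E2 and rose by 4.44 ± 0.28 (adjusted p = 3.77e-09). TFF1, a secreted trefoil protein and a classic estrogen target, had a single read in the 3 vehicle libraries and 29 in the E2 libraries, a ratio of 118 after scaling (95% exact interval for counting error only, 19.5 to 4800), and none in the TNFα libraries. Estrogen-response genes did not all rise. NRIP1, the corepressor RIP140, fell by 2.82 relative to vehicle, yet its trend value was -2.40 and with trends removed its difference was -0.39, below the size required. SLC7A2, a transporter of cationic amino acids, fell from 22.6–33.9 CPM to 1.44–2.98 CPM (-3.71 ± 0.27), with trends removed (-1.89) and in TNFα-treated cells (-1.57) too.

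Cystatins, inhibitors of cysteine proteases, mostly rose. Of 8 tested, 6 rose and 1 fell, and all rises had the 6 libraries with E2 above the 6 without, with a median log2 fold change over the list of 3.50 and a trend value of 1.29. CST1 (cystatin SN) read 15.4, 12.9 and 12.3 CPM in vehicle, 639.7, 789.9 and 635 in E2, 9.95, 9.46 and 9.94 in TNFα and 607, 525 and 655 in E2 + TNFα, a rise of 5.67 ± 0.15 (adjusted p = 9.30e-13). CST4 (cystatin S) was at 10.9, 9.26 and 10.1 CPM in vehicle and at 325, 417 and 326 CPM in E2, CST2 (cystatin SA) at 0.46, 0.376 and 0.481 and 50.8, 62.7 and 53.3 CPM, and CST5 (cystatin D) at 0.0484, 0.117 and 0.131 and 15.7, 19 and 16.9 CPM. These salivary-type cystatins, neighbours on chromosome 20, rose by 5.14, 6.96 and 7.35 on the log2 scale, and CST5 had no read in any TNFα library but 13, 12.9 and 14.5 CPM under E2 + TNFα. CST1, CST2 and CST4 have closely similar sequences, and how the counting divided reads between them is not stated. CST3 (cystatin C) and CSTB (cystatin B), inhibitors made by most cells, rose by 1.86 and 1.71, of which trends removed left 1.14 and 0.78, under the size required. CST6 (cystatin E/M) read 0.263–0.305 CPM in vehicle and 0.16–0.633 CPM in E2 and did not pass. CST7 (cystatin F), an inhibitor of leukocyte cathepsins, went the other way, from 7.69, 6.89 and 6.85 CPM in vehicle to 1.92, 0.797 and 1.72 CPM in E2, a log2 fold change of -2.18 ± 0.30, and it fell by 3.18 in TNFα-treated cells.

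A perfect palindromic ERE, GGTCANNNTGACC (N is any base), was searched in promoters (250 bases before to 50 after the start, RefSeq, GRCh38.p14, both strands searched). A promoter was available for 9316 tested genes, and promoters are counted here once per gene. The ERE occurred in 1 of these 9316 and in none of the 30 of estrogen-response genes. Its 5-letter arm GGTCA occurred in 34.4% of the 9316 and in 11 of those 30. The arm was in 31.2% of the 138 promoters of genes that rose in both fits and in TNFα-treated cells. It was in 41.7% of 218 that rose in both fits but not in TNFα-treated cells. In promoters of genes that fell the shares were 38.6% of 44 and 36.9% of 396. The promoters of CST5 and of S100A7, a gene that follows below, are shown because both genes were near 0 without E2. CST5 lies at chr20:23879699-23879998 and S100A7 at chr1:153460602-153460901 (both minus strand), with the arm in capitals, read on the opposite strand and so as TGACC in S100A7, starting 212 and 169 bases before the start.
CST5: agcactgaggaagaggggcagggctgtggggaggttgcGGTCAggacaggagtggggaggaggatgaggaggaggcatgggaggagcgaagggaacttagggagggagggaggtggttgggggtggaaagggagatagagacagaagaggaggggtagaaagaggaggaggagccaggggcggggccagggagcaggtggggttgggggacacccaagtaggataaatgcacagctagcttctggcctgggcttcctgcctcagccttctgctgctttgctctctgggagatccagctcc
S100A7: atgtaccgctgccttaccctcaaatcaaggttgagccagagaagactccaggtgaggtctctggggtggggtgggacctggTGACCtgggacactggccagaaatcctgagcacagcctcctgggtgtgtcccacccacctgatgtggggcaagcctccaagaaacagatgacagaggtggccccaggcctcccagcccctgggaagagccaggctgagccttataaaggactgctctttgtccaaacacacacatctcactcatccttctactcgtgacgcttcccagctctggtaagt
These matches are letters in the window, and no binding was measured.

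Keratins, the intermediate filaments of epithelia, rose in 9 and fell in 2 of 14 genes tested (median 1.99, trend value 0.93), and 5 rose and 2 fell in TNFα-treated cells. KRT13, a keratin of stratified mucosa, read 1.33, 1.22 and 1.07 CPM in vehicle, 137, 159 and 139.7 in E2, 0.198, 0.0653 and 0 in TNFα and 116, 121 and 153 in E2 + TNFα. Its rise over vehicle was 6.91 ± 0.22 (adjusted p = 4.01e-12). KRT19, a luminal keratin, read 317, 261 and 272 CPM in vehicle and 2654, 3113 and 2028 CPM in E2 (3.20 ± 0.17), and the TNFα libraries (250.1–298 CPM) stayed with vehicle. KRT8 rose by 2.37 and also rose in TNFα-treated cells, whereas its partner KRT18 rose by 2.23 but not with trends removed (1.27) or in TNFα-treated cells (0.48). KRT81, a hair keratin, read 25.4, 20.5 and 21.8 CPM in vehicle, 4.45, 4.62 and 4.79 in E2, 59.7, 40.3 and 78.7 in TNFα and 2.91, 3.46 and 4.58 in E2 + TNFα, a log2 fold change of -2.29 ± 0.24 with E2 and of -4.00 with E2 under TNFα.

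Among 23 epithelial and luminal markers tested, 11 rose and 2 fell, and with trends removed 7 rose and 1 fell. The median was 1.34 with a trend value of 0.84, and 8 rose and 2 fell in TNFα-treated cells. CDH1, which encodes E-cadherin, read 3.24, 3.62 and 2.58 CPM in vehicle, 32.2, 37.5 and 53.4 in E2, 1.81, 2.12 and 1.77 in TNFα and 43.9, 34.9 and 43.2 in E2 + TNFα, a rise of 3.71 ± 0.21 (adjusted p = 1.73e-09). ELF3, an epithelial ETS factor, rose from 4.07–4.76 CPM to 249.6–286 CPM (5.92), and was also higher in TNFα (33.8–38.5 CPM) and highest in E2 + TNFα (359.8–419 CPM). OVOL2, a repressor of mesenchymal genes, had 6 reads in the vehicle libraries and 116 in E2, a scaled ratio of 78.4 (35.0 to 218). The other luminal markers tested did not pass in the comparison with vehicle: ERBB2 differed by -0.08, GATA3 by -0.71, EPCAM by 0.05 and XBP1 by 0.83 on the log2 scale. Mesenchymal markers split differently, with 1 rise and 3 falls among 19 and a median of 0.10. With trends removed 3 rose and 1 fell, and in TNFα-treated cells 3 rose and 1 fell (median 0.36). ZEB1, a repressor of E-cadherin, fell from 19.9, 26.8 and 23.1 CPM to 1.92, 0.478 and 1.18 CPM (-4.14 ± 0.34), -2.02 with trends removed. However, ZEB1 was also low in TNFα (2.17, 1.93 and 2.29 CPM) and in E2 + TNFα (2.97, 3.36 and 1.83 CPM), so that only vehicle stood apart. VIM (vimentin) differed by -0.09 and did not pass.

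Several of the largest single rises belonged to other secreted or cytoskeletal proteins. TNS4, a focal adhesion adaptor, read 0.774, 0.893 and 0.788 CPM in vehicle, 270.5, 391 and 317 in E2, 2.17, 1.73 and 2.86 in TNFα and 291, 250.3 and 338 in E2 + TNFα, a rise of 8.63 ± 0.23 (adjusted p = 9.30e-13). MAB21L4 read 35.4, 51.8 and 33.5 CPM in E2 and had 8 reads in all 3 vehicle libraries together, a scaled ratio of 615 (95% exact interval, 311 to 1430), and no read under TNFα. F13A1, the A chain of coagulation factor XIII, read 0.0726, 0.094 and 0.109 CPM in vehicle and 34.9, 31.7 and 37.2 CPM in E2 (8.48 ± 0.26). In E2 + TNFα these read 29.9–31.6 CPM (F13A1) and 30.9–43.7 CPM (MAB21L4). S100 proteins, small calcium-binding regulators, rose in 9 and fell in 1 of 13 (median 1.93, trend value 1.03). S100A7 (psoriasin) had 2 reads in the vehicle libraries, 473 in E2 (18.1, 11.2 and 12.5 CPM) and none in TNFα, a scaled ratio of 959 (264 to 7950), and S100A9 (calgranulin B) read 0.0484, 0.0235 and 0.0438 CPM in vehicle and 13.8, 11.2 and 9.77 CPM in E2. S100A10, a partner of annexin A2, rose from 249–264 to 1232–1931 CPM, and S100A13 from 40.2–47 to 203–264 CPM, both also with trends removed. The rises of S100A2, S100A4, S100A6, S100A11 and S100A16 lay between 1.85 (S100A2) and 2.29 (S100A4) and did not pass with trends removed, S100A1, S100A3 and S100A5 did not pass in either fit, and S100G fell from 1.28–1.82 to 0–0.342 CPM (0.72, the other way, with the RUV factor).

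**Figure D3:**
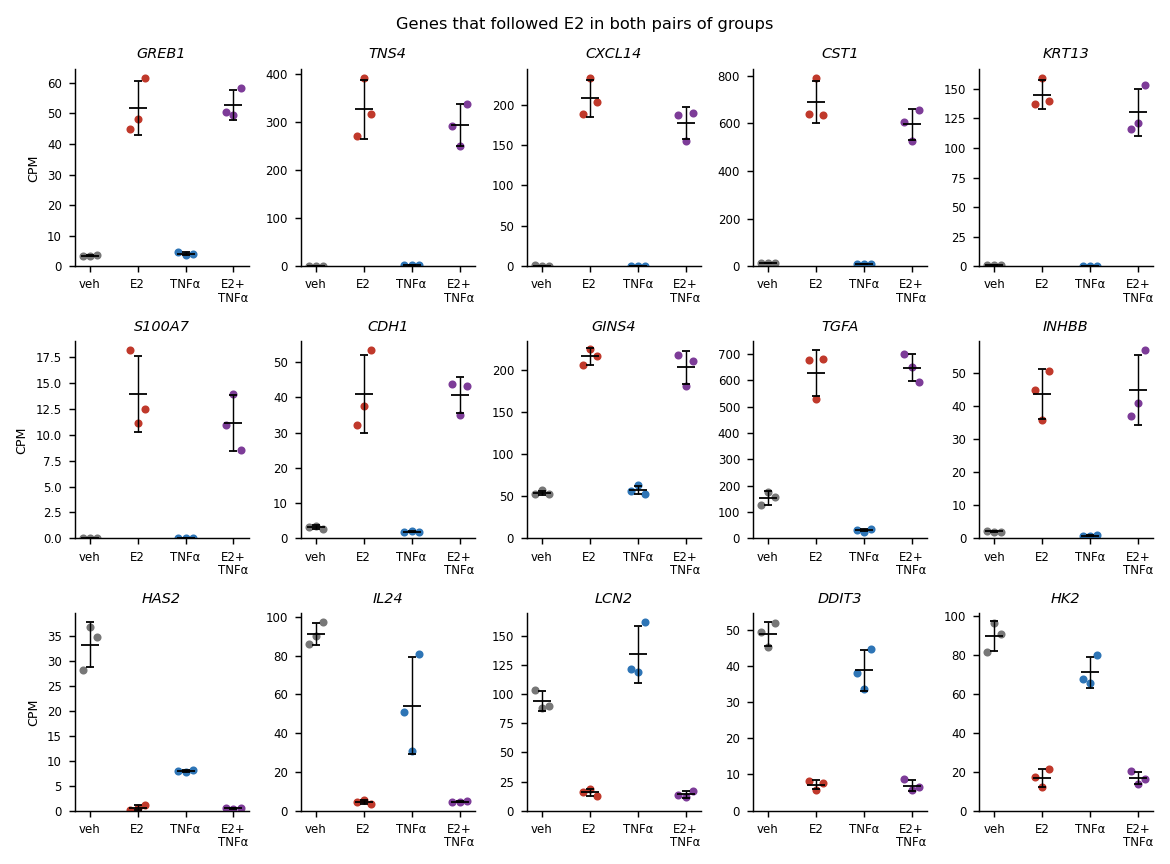
CPM (linear axis from 0) in each of the 12 libraries, grouped as vehicle, E2, TNFα and E2 + TNFα, for 15 genes that separated by E2. Points are libraries, and bars the group mean and SD (n = 3). For GREB1, TNS4, CXCL14, CST1 and KRT13 the libraries with E2 lie above those without, and for HAS2, IL24, LCN2, DDIT3 and HK2 below.

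Inflammatory genes moved in both directions. Most of the cytokines that moved fell, as did most called genes (9.87% of all genes rose and 20.6% fell). Of 6 CXC chemokines tested, 2 rose and 3 fell. CXCL8 (interleukin 8) read 889, 1103 and 1183 CPM in vehicle and 70.1, 13.9 and 33.7 CPM in E2, a log2 fold change of -4.72 ± 0.59 (adjusted p = 3.27e-06) with a trend value of -2.29 and -2.44 left on removal, but with the RUV factor the direction turned (2.40). Its level in TNFα (326–592 CPM) and in E2 + TNFα (119–696 CPM) overlapped. CXCL2 fell from 71.7–74.4 to 13.3–20.0 CPM and also in TNFα-treated cells (-1.73), CXCL3 fell from 8.88–11.1 to 1.98–2.71 CPM (-2.11), and CXCL1 differed by -1.24, which did not pass. CXCL14, a chemokine of epithelia, rose from 0.992, 0.493 and 0.525 CPM in vehicle to 188, 233 and 204 CPM in E2 (8.28 ± 0.23) and read 0.823, 0.62 and 0.832 CPM in TNFα and 188, 154 and 189.8 CPM in E2 + TNFα. CXCL16, a transmembrane chemokine, rose from 8.71–9.96 to 34.3–49.1 CPM, and with trends removed its difference was 1.25, which did not pass. Of 6 CC chemokines tested, CCL28 rose (2.85–3.29 to 6.84–14 CPM, 1.59), CCL20 had up to 20 reads in a vehicle library and none in the E2 libraries, and CCL2, CCL3, CCL5 and CCL26 did not pass relative to vehicle. In TNFα-treated cells CCL3 and CCL5 rose with E2 (1.62 and 3.03), and 0 of these CC chemokines fell.

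Among 17 interleukins, colony-stimulating factors and gp130 cytokines, 1 rose and 5 fell, and all 5 falls were also called in TNFα-treated cells. IL24, a cytokine of the IL-10 family, read 85.9, 90.3 and 97.3 CPM in vehicle, 4.58, 5.58 and 3.53 in E2, 50.9, 30.8 and 80.7 in TNFα and 4.58, 4.27 and 4.79 in E2 + TNFα. It fell by 4.35 ± 0.30 (adjusted p = 9.68e-09), with a trend value of 0.07. IL18 rose from 14.5–16.3 to 37.6–53.1 CPM (1.52), against a trend value of -0.91. IL1R2, the decoy receptor for IL-1, rose from 0.29, 0.282 and 0.328 CPM in vehicle to 4.72, 3.51 and 6.33 CPM in E2 (4.01 ± 0.30). ACKR3, a scavenging chemokine receptor, rose from 0.29, 0.423 and 0.241 CPM to 7.73, 6.7 and 7.69 CPM (4.53 ± 0.29). Both sit in a list of 38 cytokine receptors and STATs in which 3 rose and 7 fell. SOCS2, a feedback inhibitor of cytokine receptors, fell from 4.88–5.64 to 0.478–2.19 CPM, and with TNFα from 14.1–15.6 to 2.1–2.38 CPM. IL6ST (gp130) fell by 3.25, with a trend value of -2.83 and -0.33 left on removal.

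Of 30 NFκB effector genes, 10 rose and 5 fell (median 0.62, trend value 0.36), and 3 rose and 5 fell with E2 under TNFα. LCN2 (lipocalin 2) read 104, 88.2 and 89.8 CPM in vehicle, 15.7, 18.8 and 12.2 in E2, 122, 119 and 162 in TNFα and 13.5, 11.4 and 17.2 in E2 + TNFα, a log2 fold change of -2.61 ± 0.19 against a trend value of 1.25. TNFSF15 (TL1A) fell from 9.43–9.92 to 0.319–0.543 CPM (-4.36) and from 8.76–12.6 CPM in TNFα to 0.309–0.959 CPM in E2 + TNFα. LTB (lymphotoxin β) rose from 4.23, 2.7 and 3.09 CPM in vehicle to 35.5, 41.1 and 37.2 CPM in E2 (3.50 ± 0.24). It was far higher in TNFα (325, 311 and 231 CPM), and there lower with E2 (98.2, 112 and 178 CPM, difference -1.16, not past the test). Of 30 NFκB subunits and kinases 2 rose and 7 fell, and of 21 feedback inhibitors 1 rose and 4 fell. With trends removed 3 of the subunits and kinases fell, and the kinase gene TBK1 was among them (-3.77 before and -2.38 after removal, but 0.0057 with the RUV factor), with TNFα libraries as low as E2 (1.4–1.84 and 0.797–1.3 CPM).

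Interferon-stimulated genes included rises that followed E2. Of 49 tested, 10 rose and 7 fell, and with trends removed 8 rose and 0 fell (median 0.63), beside 7.33% and 6.59% of all genes. In TNFα-treated cells 11 rose and 1 fell. OAS1, which makes the 2-5A activator of RNase L, read 1.16, 0.964 and 0.985 CPM in vehicle, 10.1, 9.57 and 12.9 in E2, 1.84, 1.47 and 1.61 in TNFα and 8.96, 6.68 and 9.23 in E2 + TNFα (3.39 ± 0.24, adjusted p = 1.18e-08). IFIT1, a sensor of RNA without cap methylation, read 9.62, 12.4 and 12.5 CPM in vehicle and 41.7, 23.9 and 39 CPM in E2. Its rise was 1.61 against a trend value of -1.37, so that 3.01 remained with trends removed, and it was 3.32 higher with E2 under TNFα. IFI16, a DNA sensor, fell by 2.64 (log2 fold change with trends removed -1.10). Of 19 MHC class I and processing genes 0 rose and 2 fell (median 0.13). PSME2, a proteasome activator subunit, fell from 53–62 to 9.49–11.3 CPM but read 7.07–10.8 CPM in TNFα. Among 20 complement and coagulation genes 2 rose and 7 fell, and C3, the central complement protein, rose from 249.7, 226 and 208 CPM to 790.1, 1267 and 1233 CPM (2.26 ± 0.17).

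Known motifs of these classes were searched. Shares of all promoters for these motifs and those below are of the 9250 distinct promoters searched. GAAANNGAAAC, a form of the interferon response element (ISRE), was in 17 of 38 promoters of interferon-stimulated genes and in 0.811% of all promoters. GGGANTTTCC, a form of the NFκB site, was in 3 of 5 promoters of CXC chemokines and 2 of 24 of NFκB effector genes, against 0.595% of all. IFIT1 (GRCh38.p14 chr10:89392373-89392672, plus strand) and LTB (chr6:31582376-31582675, minus strand) are shown as named members with a match, in capitals as the reverse complement because both matches lie on the opposite strand, starting 117 and 86 bases before the start.
IFIT1: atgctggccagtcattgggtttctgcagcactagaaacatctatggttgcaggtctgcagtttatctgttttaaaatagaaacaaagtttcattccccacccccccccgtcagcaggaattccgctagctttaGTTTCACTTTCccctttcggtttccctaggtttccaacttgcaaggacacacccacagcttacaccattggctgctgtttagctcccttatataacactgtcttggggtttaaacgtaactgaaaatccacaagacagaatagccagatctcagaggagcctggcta
LTB: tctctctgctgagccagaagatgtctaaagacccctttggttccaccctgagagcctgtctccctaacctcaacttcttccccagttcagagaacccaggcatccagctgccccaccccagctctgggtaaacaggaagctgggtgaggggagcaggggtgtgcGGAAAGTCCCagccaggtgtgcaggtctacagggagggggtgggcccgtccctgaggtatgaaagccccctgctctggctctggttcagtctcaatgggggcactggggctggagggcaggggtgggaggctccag
In the libraries above, IFIT1 was higher with E2 with and without TNFα, whereas LTB was highest with TNFα alone.

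Growth factor and morphogen pathways held rises and falls, and TGFA and INHBB were called with E2 in both settings. Of 14 EGF receptors and ligands, TGFA, an EGFR ligand, rose from 127, 178 and 156 CPM in vehicle to 676, 527 and 679.8 CPM in E2 (2.03 ± 0.16, adjusted p = 2.73e-08) and EGFR fell from 228, 283 and 243 to 58.1, 67.1 and 80.5 CPM (-1.87 ± 0.14). In TNFα-treated cells TGFA rose from 25.9–35.9 to 595–699 CPM, and EGFR was lower (227–279 against 83–99.6 CPM, difference -1.46, not past the size). Of 28 TGFβ ligands, receptors and SMADs, 4 rose and 6 fell. INHBB, which encodes the activin βB subunit, read 2.25, 2.02 and 2.01 CPM in vehicle, 45, 35.7 and 50.6 in E2, 0.725, 0.587 and 0.884 in TNFα and 37, 41.1 and 57 in E2 + TNFα (4.39 ± 0.21). TGFBR1, the type I TGFβ receptor, fell from 102, 142 and 131 CPM to 4.24, 5.26 and 10.8 CPM (-4.20), but TNFα libraries (7.08, 8.26 and 9 CPM) were as low, and it differed by 0.60 between E2 + TNFα and TNFα. Of 15 BMP and ID genes 4 rose and 7 fell, and with trends removed 1 and 2 did. BMPER, a BMP-binding modulator, fell from 11.3–13 to 0.362–1.78 CPM, and BMP4 rose from 30.4–30.7 to 147–159.8 CPM.

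In the WNT pathway 3 rose and 3 fell of 26, and 5 rose with E2 under TNFα. The rises in both included WNT7B (2.1, 1.53 and 1.64 CPM in vehicle, 17.2, 26.2 and 18.7 in E2, 3.54) and PORCN (22.1, 22.4 and 20.3 and 119, 174 and 120.2 CPM, 2.67), the acyltransferase needed to secrete WNT ligands. Of 24 Notch genes, 1 rose and 3 fell. The ligand JAG1 fell from 27.2, 33.9 and 29.9 CPM to 6.29, 3.51 and 10.1 CPM (-2.15) and, under TNFα, from 37.5–44 to 10.1–14.6 CPM. NOTCH1 fell from 81.5–103 to 22.7–34 CPM, and LFNG, which glycosylates Notch receptors, rose from 3.48–3.85 to 28.8–54.9 CPM although TNFα libraries (22.2–26.3 CPM) were as high as E2 + TNFα (24.4–36.7 CPM). None of 23 DUSP, Sprouty and related feedback genes of ERK was called by edgeR or by DESeq2 with trends kept, although 15 had an unadjusted p under 0.05 in edgeR. Of 25 AP-1 and immediate early genes 1 rose and 5 fell. FOS read 13.6, 14.3 and 14.5 CPM in vehicle, 0.205, 0.957 and 1.63 in E2, 0.757, 0.848 and 0.676 in TNFα and 1.05, 1.36 and 1.47 in E2 + TNFα, a log2 fold change of -4.00 ± 0.40 against a trend value of 0.66. With FOS, the vehicle libraries alone stood high.

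Genes of the matrix and of adhesion divided between the library orders. Of 17 collagens 0 rose and 6 fell, with a median of -1.36 against a trend value of 0.47, and 9 fell with trends removed. With E2 under TNFα 2 rose and 1 fell (median -0.12). COL15A1, a basement membrane collagen, fell from 8.92, 9.28 and 8.34 CPM to 1.3, 1.12 and 1.54 CPM and read 0.626, 0.62 and 0.312 CPM in TNFα. HAS2, a hyaluronan synthase, read 28.2, 36.7 and 34.8 CPM in vehicle, 0.137, 0.478 and 1.18 in E2, 7.87, 7.76 and 8.06 in TNFα and 0.556, 0.21 and 0.479 in E2 + TNFα. It fell by 5.84 ± 0.41 (adjusted p = 1.04e-08) with a trend value of -2.16, and fell by 4.29 with E2 under TNFα. Among laminin chains LAMB3 differed by -0.29, which did not pass, and LAMA3 fell by 1.79, with a log2 fold change of -1.46 with trends removed. Perlecan (HSPG2) fell from 321–418 to 97.8–152 CPM but read 123–157 CPM in TNFα. Of 11 integrins, ITGB2, the leukocyte β2 chain, rose from 2.81, 2.58 and 2.32 to 12.3, 12 and 14.3 CPM (2.32) and 5 fell. Those falls were ITGA1, ITGA2, ITGAV, ITGB1 and ITGB3, and with trends removed only ITGB3 (-1.85) kept its call, ITGB1 for example going from -2.46 to -1.06.

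Matrix proteases and their inhibitors gave 4 rises and 6 falls among 32. MMP1 (interstitial collagenase) read 453, 459 and 524 CPM in vehicle, 21.5, 10.4 and 16.5 in E2, 16.6, 16.7 and 16.7 in TNFα and 15.8, 18.6 and 11.9 in E2 + TNFα. MMP3 (stromelysin 1) was at 95.5, 99.2 and 106 CPM with vehicle, 3.35, 2.71 and 4.07 with E2, 2.9, 2.74 and 4.21 with TNFα and 4.27, 3.88 and 3.42 with both. Their falls against vehicle, -4.86 ± 0.22 and -4.86 ± 0.20, exceeded the trend values (-0.78 and -0.45), but with E2 under TNFα they differed by -0.11 and 0.24. For both genes the vehicle libraries alone stood high. ADAM12, a membrane-bound protease, by contrast followed E2, reading 3.07, 2.73 and 2.67 CPM in vehicle, 10.5, 8.61 and 11.2 in E2, 0.329, 0.294 and 0.728 in TNFα and 10.1, 9.31 and 9.74 in E2 + TNFα.

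**Figure D4:**
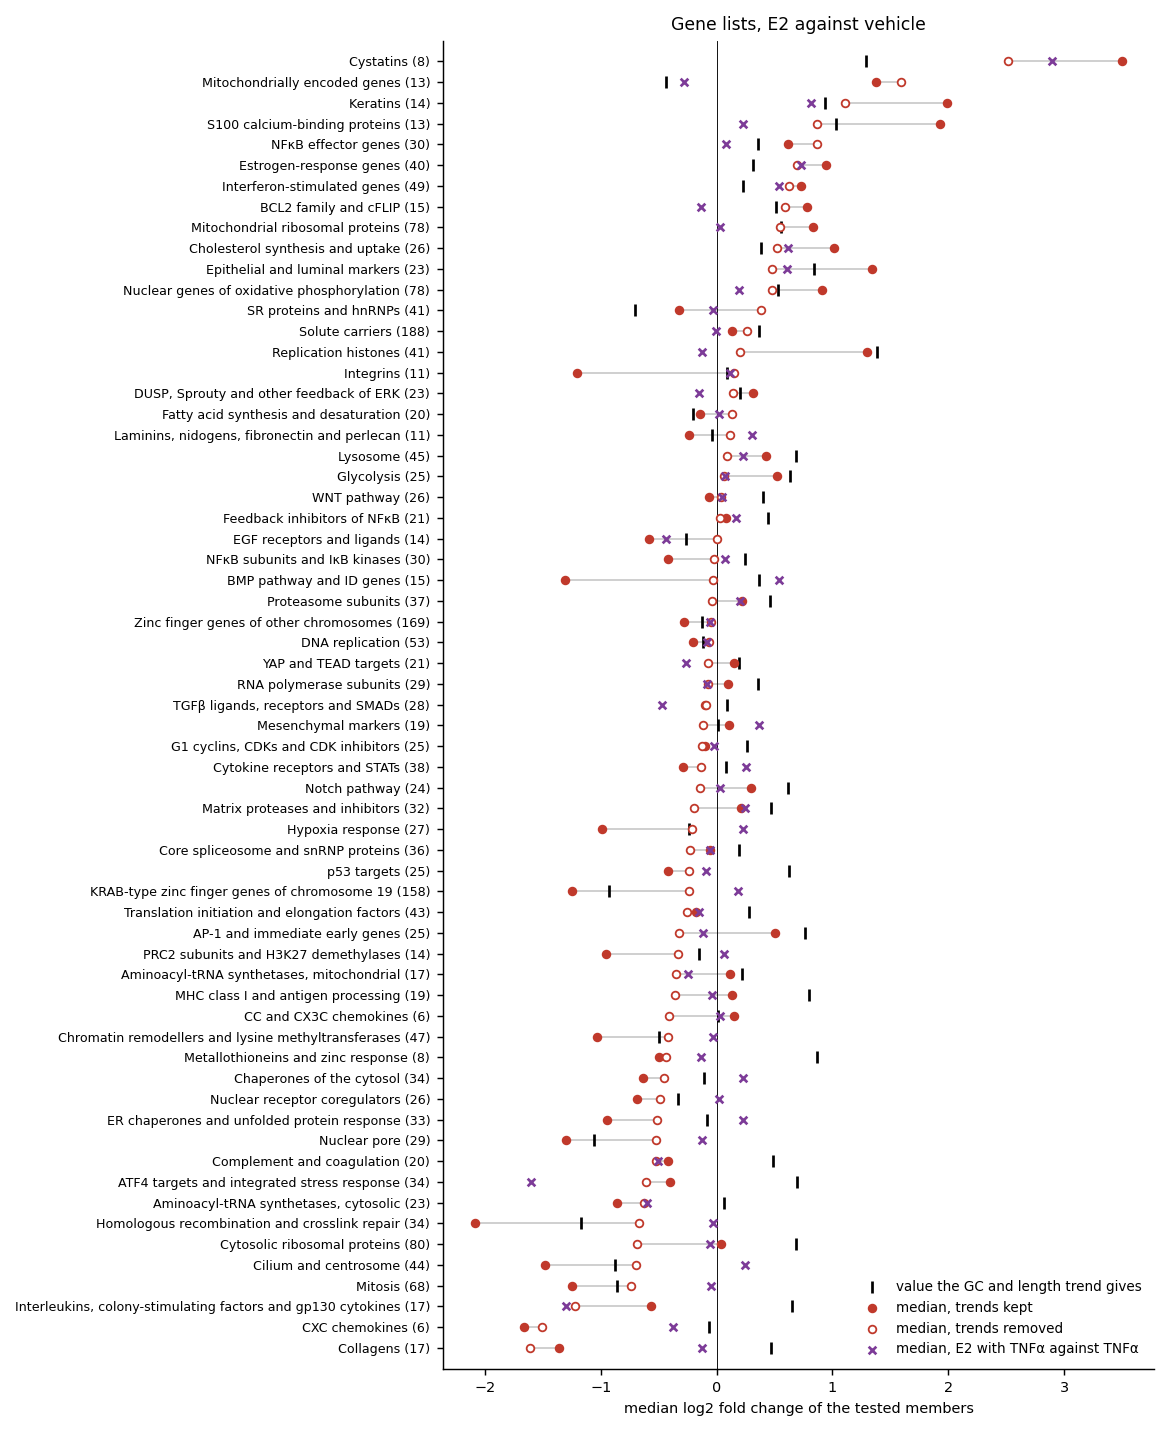
Median log2 fold change of E2 relative to vehicle for each gene list with trends kept and with trends removed, with the value that the GC content and length trend gives (black mark). Some lists with low values, such as mitosis (-1.25) and recombination repair (-2.08), also have low trend values (-0.86 and -1.17). Others, such as collagens (-1.36, trend value 0.47) and CXC chemokines (-1.67, trend value -0.07), do not. Cystatins stand above their trend value.

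Metabolic classes held rises and falls. Of 26 genes of cholesterol synthesis and uptake 5 rose and 2 fell, with a median of 1.02 and a trend value of 0.38, and with trends removed 3 rose. PMVK (phosphomevalonate kinase) rose from 13.3, 10.7 and 12.2 CPM to 104, 138 and 81.4 CPM (3.15 ± 0.18), and EBP (a sterol isomerase) from 66.5–71.6 to 334–485 CPM. Both lay between the groups in TNFα (52.8–60.6 and 162–173 CPM). The 78 nuclear genes of oxidative phosphorylation had a median of 0.91 (trend value 0.53), 16 rises and 4 falls, and their median with E2 under TNFα was 0.19. Members went both ways: UQCRQ of complex III rose (60.8–68.8 to 224–338 CPM), and ATP5ME of ATP synthase fell (22.1–26.1 to 5.06–7.94 CPM). The 13 mitochondrially encoded genes, a list added after gene names had been seen, had a median of 1.38 against a trend value of -0.44. With trends kept 3 rose, with trends removed 9, and with E2 under TNFα 0 (median -0.28). MT-ND3, a complex I subunit, read 697, 725 and 719.9 CPM in vehicle, 3538, 6332 and 3593 in E2, 2186, 3087 and 3755 in TNFα and 3343, 1633 and 1147 in E2 + TNFα, so vehicle stood lowest.

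Of 25 glycolytic genes HK2 (hexokinase 2) fell from 81.5, 96.7 and 90.9 CPM to 17, 12 and 21.4 CPM (-2.40 ± 0.19, adjusted p = 3.63e-08), its trend value was -0.02, and under TNFα it fell from 67.5, 65.6 and 80.2 to 20.3, 13.9 and 16.2 CPM. PKM (pyruvate kinase) rose by 1.82, of which 1.11 was left with trends removed. The 27 hypoxia-response genes gave 6 falls and no rise with trends kept, among them HIF1A (-2.45, trend value -1.81). Those falls are 22.2% of the list, beside 20.6% of all genes lower and 9.87% higher. With trends removed 5 fell and 0 rose, 18.5% of the list, beside 6.59% of all genes lower and 7.33% higher. Only 2 genes of the list fell in both fits. Of 45 lysosomal genes 3 rose and 2 fell. CTSD (cathepsin D), a textbook estrogen target, rose from 196, 157 and 161 CPM to 1259, 1783 and 1254 CPM (3.06 ± 0.19), and from 462–519.8 CPM in TNFα to 1247–1917 CPM in E2 + TNFα. Of 188 solute carriers 18 rose and 24 fell, 22.3% of the list, beside 30.5% of all genes (9.87% higher and 20.6% lower). With trends removed 11 rose and 4 fell, 7.98% of the list beside 13.9% of all genes. The fructose transporter SLC2A5 rose from 0.29, 0.165 and 0.328 to 5.41, 4.62 and 2.44 CPM. SLC19A2, a thiamine transporter, fell from 12.2–19.3 to 1.44–2.17 CPM and read 4.51–6.66 CPM in TNFα. FABP3, a fatty acid binding protein, rose from 0.613–0.822 to 5.42–8.07 CPM, and FABP5 fell from 16.2–18 to 2.55–3.49 CPM with TNFα libraries (2.37–3.64 CPM) at the E2 level. Of 8 metallothionein and zinc-response genes MT1F rose by 2.13 and SLC39A10 fell by 2.66, and neither passed with trends removed (0.88 and 0.03). With the RUV factor SLC39A10 turned to 1.32.

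Targets of ATF4, the factor of the integrated stress response, gave more falls than rises with E2, with and without TNFα. All genes tested did so relative to vehicle but not under TNFα. Of 34 ATF4 targets, 2 rose and 8 fell relative to vehicle (median -0.41, trend value 0.69). That is 29.4% of the list called, beside 30.5% of all genes (9.87% higher and 20.6% lower). With trends removed 6 fell, beside 6.59% of all genes. With E2 under TNFα 20 fell and 0 rose (median -1.60), where 2.01% of all genes fell. All 8 falls relative to vehicle had the 6 libraries with E2 below the 6 without, an order held by 12.9% of all genes that fell. DDIT3 (CHOP) read 49.4, 45.4 and 52 CPM in vehicle, 8.14, 5.74 and 7.6 in E2, 38.1, 33.5 and 44.8 in TNFα and 8.59, 5.7 and 6.47 in E2 + TNFα, a log2 fold change of -2.75 ± 0.19 (adjusted p = 9.31e-09) against a trend value of 0.39. ATF3 fell from 41.1, 44.3 and 46.5 CPM to 11.9, 12.8 and 11.6 CPM (-1.87 ± 0.16) and was 66.1, 54.8 and 85.3 CPM in TNFα and 16.6, 15 and 15.8 CPM in E2 + TNFα. ERN1, the ER stress sensor IRE1, fell from 15.8–18.1 to 3.22–7.42 CPM, with trends removed by 2.22, and was -1.49 under TNFα, just short of the size. Cytosolic tRNA synthetases, many of them ATF4 targets, had a median of -0.86 with 8 falls among 23, a median of -0.63 and no call with trends removed, and 2 falls with a median of -0.60 under TNFα. The ATF4 motif TGATGNAA was in 6 of 28 promoters of the ATF4 targets and in 6 of 16 of the synthetases, against 1.63% of all. ATF3 is shown (GRCh38.p14 chr1:212565157-212565456, plus strand) with the match in capitals starting 191 bases before the start.
ATF3: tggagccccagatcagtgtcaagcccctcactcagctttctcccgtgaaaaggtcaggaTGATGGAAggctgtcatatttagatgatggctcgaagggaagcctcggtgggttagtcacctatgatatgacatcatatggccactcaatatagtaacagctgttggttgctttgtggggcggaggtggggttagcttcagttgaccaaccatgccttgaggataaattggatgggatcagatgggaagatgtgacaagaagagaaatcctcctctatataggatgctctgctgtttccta
All 6 libraries with E2 were below all 6 without for this gene.

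Chaperones of the cytosol fell in 11 and rose in 2 of 34 (median -0.64, trend value -0.11), and with trends removed fell in 6 and rose in 1. With E2 under TNFα 3 rose and 0 fell (median 0.23), and in none of the 11 falls did the 6 libraries with E2 lie below the 6 without. Of all genes that fell relative to vehicle, 12.9% had that order. HSPB8, a small heat shock protein and a rise of this list, followed E2, at 67.3, 72.1 and 68 CPM in vehicle, 387, 433 and 365 in E2, 32, 28.2 and 40.9 in TNFα and 379, 322 and 395 in E2 + TNFα. HSPA1A, an inducible HSP70, read 1538, 1490.0 and 1553 CPM in vehicle and 135, 146 and 135 CPM in E2 (-3.46 ± 0.16), and its near-identical copy HSPA1B, with which it shares reads, fell by 3.17, so the split between them is uncertain. HSPA1A was lower still in TNFα (63.3, 61.8 and 55.9 CPM), and E2 + TNFα read 133, 135 and 201 CPM. HSP90B1 (GRP94) fell from 1146, 1182 and 1253 CPM to 106, 141 and 152 CPM, with 98.8, 107 and 117 CPM in TNFα, in a list of 33 ER chaperones and unfolded protein response genes with 12 falls and 1 fall under TNFα. Proteasome subunits (1 rise and 5 falls of 37) included PSMC6, which fell from 86.1–102 to 2.17–11.2 CPM with TNFα at 2.31–5.29 CPM, and differed by 2.23, the other way, with the RUV factor.

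Cytosolic ribosomal proteins had a median of 0.04 against a trend value of 0.68, with 2 rises and 13 falls of 80. Their median under TNFα was -0.06. The calls with trends kept are 18.8% of the list, beside 30.5% of all genes. With trends removed 3 rose and 17 fell (median -0.69), beside 7.33% of all genes higher and 6.59% lower. RPS21 fell from 416, 357 and 389.8 CPM to 29.1, 22.6 and 21.1 CPM (-3.99 ± 0.15) and RPS28 from 201–236 to 15.5–37 CPM, while RPS10 rose from 6.13–7.13 to 57.5–79.4 CPM. RPS21 and RPS28 were as low in TNFα (19.7–22.6 and 10.7–19.1 CPM). Ribosomal protein genes have many processed pseudogenes, so their counts are uncertain. Mitochondrial ribosomal proteins had 14 rises and 4 falls of 78 (median 0.83, trend value 0.56), MRPL17 for example going from 65.5–71.3 to 201–231 CPM with TNFα at 138–147 CPM. Of 43 translation factors 7 fell (16.3%) and none rose with trends kept, beside 20.6% of all genes lower and 9.87% higher.

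Many mitosis genes were highest in the vehicle libraries. Of 68 mitosis genes 31 fell and none rose (median -1.25, trend value -0.86), and with trends removed 12 fell (median -0.74). With E2 under TNFα 1 rose and 0 fell (median -0.04). In all 31 falls the vehicle libraries lay above the other 9, and in none did the 6 libraries with E2 lie below the 6 without. Of all genes that fell, 96.8% had the first of these orders and 12.9% the second. PLK4, the kinase that starts centriole duplication, read 23.8, 29.9 and 29.7 CPM in vehicle, 1.85, 0.638 and 1.27 in E2, 1.88, 2.02 and 1.04 in TNFα and 2.23, 3.29 and 1.62 in E2 + TNFα (-4.36 ± 0.35, -2.47 with trends removed, 0.50 under TNFα). HMMR, a spindle protein, fell by 4.27 (1.00 with the RUV factor), and ASPM, another, fell by 4.04, with -1.28 left on removal of the trends. The CHR element TTTGAA was in 42 of 58 mitosis promoters and in 9.33% of all, and PLK4 (GRCh38.p14 chr4:127880643-127880942, plus strand) is shown with the match, on the opposite strand, in capitals starting at base 39 after the start.
PLK4: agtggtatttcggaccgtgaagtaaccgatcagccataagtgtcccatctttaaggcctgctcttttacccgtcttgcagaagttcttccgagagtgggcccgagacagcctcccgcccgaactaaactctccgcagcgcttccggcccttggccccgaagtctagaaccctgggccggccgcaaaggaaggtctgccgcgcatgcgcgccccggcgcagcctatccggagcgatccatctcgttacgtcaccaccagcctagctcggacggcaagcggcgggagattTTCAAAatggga
Recombination and crosslink repair genes, long and rich in A and T, fell in 21 of 34 (median -2.08, trend value -1.17), and with trends removed in 2. BRCA2, for example, fell by 4.09 with a trend value of -2.88 and -1.20 left. FANCI kept its call (-2.73 and -1.65), with 85.6–93.3 CPM in vehicle, 8.61–16.9 in E2 and 13.6–17.3 in TNFα. DNA replication genes had a median of -0.20 (3 rises and 13 falls of 53). Among them GINS4, a subunit of the replicative helicase, followed E2, at 52.5, 57.4 and 52.9 CPM in vehicle, 207, 226 and 217 in E2, 56.6, 63.2 and 53.2 in TNFα and 218, 182 and 211 in E2 + TNFα (1.996 ± 0.11, adjusted p = 1.70e-09). CDKN1C, the CDK inhibitor p57, fell from 3.43–3.65 to 0.616–1.59 CPM and fell by 1.73 under TNFα. Replication histones, short and GC-rich, rose in 16 of 41 with a median of 1.30, but their trend value was 1.38, and with trends removed 1 rose and 2 fell.

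**Figure D5:**
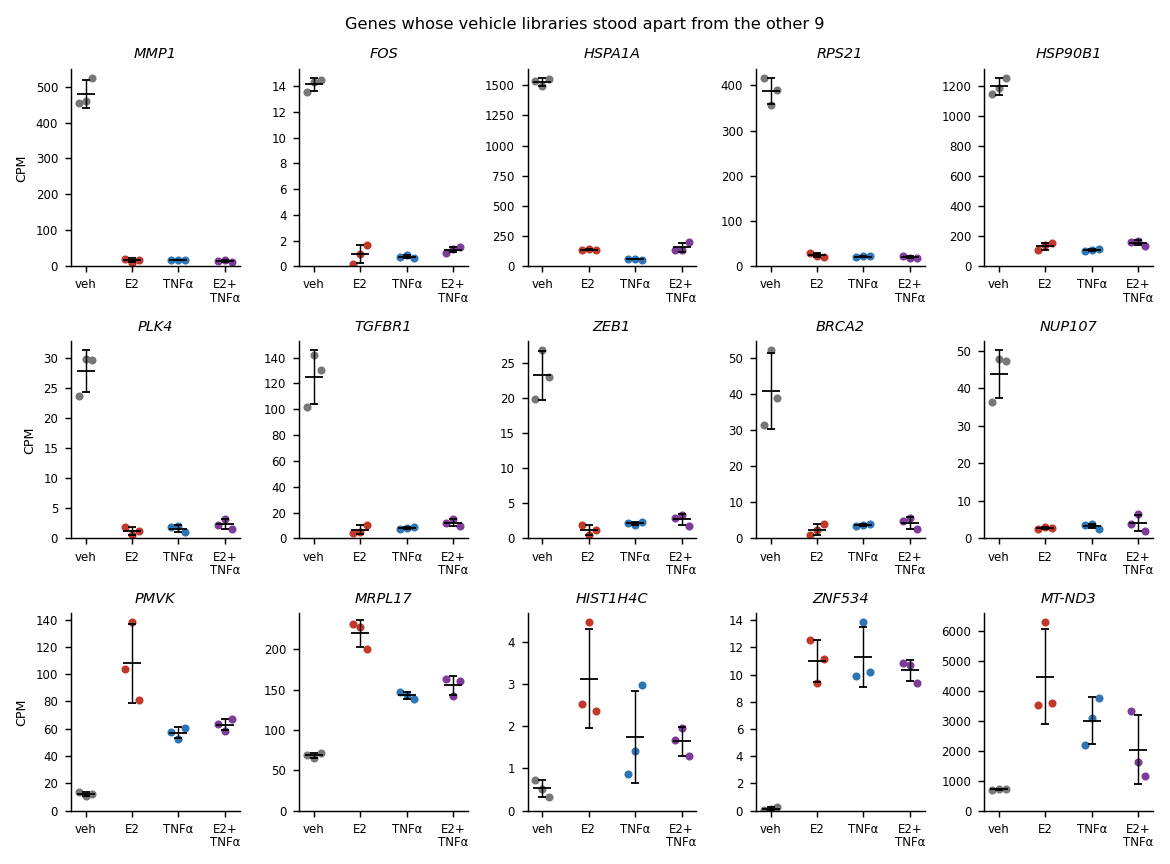
CPM (linear axis from 0) in each of the 12 libraries, by group, for 15 genes called relative to vehicle in which the TNFα libraries sat with the E2 libraries or between the groups. Points are libraries, and bars the group mean and SD (n = 3); for MMP1, FOS, RPS21 and PLK4 the 3 vehicle libraries lie above the other 9, and for MT-ND3 and ZNF534 below.

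Chromatin and nuclear classes gave more falls than rises, as did all genes tested (9.87% higher and 20.6% lower). With trends removed those shares of all genes were 7.33% and 6.59%. Chromatin remodellers and lysine methyltransferases fell in 16 of 47 (median -1.03, trend value -0.50) and in none with trends removed by edgeR (median -0.42, 33 with an unadjusted p under 0.05; no other tool was run on that fit). CHD1, a remodeller, fell by 3.49, with -1.07 left. Nuclear pore genes fell in 12 of 29 (median -1.30, trend value -1.06) and in 2 with trends removed, of which NUP107 went from 36.5–47.9 to 2.4–3.03 CPM with 2.6–3.72 CPM in TNFα. KRAB-type zinc finger genes of chromosome 19 gave 14 rises and 69 falls of 158 and, with trends removed, 6 and 16. ZNF534 rose from 0.0242, 0.094 and 0.241 CPM to 12.5, 9.41 and 11.1 CPM, and was equally high in TNFα (9.88–13.8 CPM). In 169 zinc finger genes of other chromosomes, 8 rose and 50 fell. ZNF488 followed E2 (1.52, 1.39 and 1.62 CPM in vehicle, 19.6, 21.7 and 16.7 in E2, 1.5–2.14 in TNFα, 12.9–16.5 in E2 + TNFα). Cilium and centrosome genes gave 22 falls and 1 rise of 44 (median -1.48, trend value -0.88), and 5 of the falls were also called with trends removed. Nuclear receptor coregulators gave 7 falls and 1 rise of 26 (median -0.68, trend value -0.33), and 1 of the falls was also called with trends removed. PRC2 subunits and H3K27 demethylases gave 3 falls of 14 (median -0.95, trend value -0.15), of which none was called with trends removed, where 1 other member was called lower. SUZ12, a core PRC2 subunit, fell by 3.10, with a trend value of -2.07 and -1.01 left, while the catalytic EZH2 differed by -1.28 and did not pass. None of the 14 PRC2 and demethylase genes was called with E2 under TNFα by edgeR or DESeq2, and 7 had an unadjusted p under 0.05 in edgeR.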

How the data were processed

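Poly(A) RNA libraries (TruSeq Stranded mRNA, 50-base paired-end reads) were aligned by the authors to hg38 with TopHat2 2.1.0, and the deposited values are raw counts per gene from featureCounts, with no normalisation. The strand setting of the counting is not given in the sources used here. The authors corrected batch effects with RUVseq on housekeeping genes, which is not part of the deposited counts, and no source used here assigns libraries to batches.

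Of 12567 rows, 46 exact repeats and 70 alias rows of other entries were dropped, leaving 12451 entries. The filter (an RPKM of 1 or more in 3 or more of 12 libraries) kept 11303 genes. edgeR 4.0.16 (R 4.3.3) was fitted with TMM scaling and 4 group means over all 12 libraries, because the groups then share an estimate of the spread, and tested by quasi-likelihood. Calls needed a log2 fold change of at least 1.5 in size, p under 0.05 and a Benjamini-Hochberg adjusted p of at most 0.1. Exon positions and summed exon length were those deposited with the counts, and exon GC content was computed from the hg38 sequence at these positions. For the second fit, each library's loess curve (span 0.3) on GC content and then on length was removed through offsets. DESeq2 1.42.0, other scalings and filters, an unwanted factor, the replicate number as a block and leaving out libraries were alternatives. The steps were tested on simulated data. Intervals on read ratios are exact binomial and cover counting error only.

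Depth was 7652016 to 39943664 counts per library. Gene lists and the members of the comparison were chosen with earlier results of these data known, so list counts are descriptions. Named genes were ESR2, the 6 largest rises and falls called in both fits, the leading members of each list called in both fits, and the largest change of each list lost on trend removal, with small lists described whole. Some genes that this rule names are not reported here.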

Additional observations from a re-analysis of the deposited data

Results flagged for a closer look

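The effect of E2 in TNFα-treated cells differed from its effect relative to vehicle, by the interaction term of the same edgeR fit, for 3593 genes at the same thresholds. Among 130 genes named with values, 79 had a called difference, and 51 of these kept it in the same direction with the GC content and length trends removed. Values below are log2 differences, the E2 effect with TNFα minus that without. The interaction uses the vehicle libraries, so the sequence trend described for them moves with it, and its part in it was not tested.

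For 43 genes that fell relative to vehicle the difference was above 0, so that under TNFα the fall was smaller or absent or the E2 effect ran the other way. Among proteases, matrix and adhesion genes these were MMP1 (4.74), MMP3 (5.10), COL15A1 (3.65), HSPG2 (1.85), LAMA3 (1.93), HAS2 (1.56), ITGB1 (2.97) and ITGB3 (1.82). Among chaperones and proteasome genes they were HSPA1A (4.83), HSPA1B (4.55), HSP90B1 (3.70), PSMC6 (4.92) and PSME2 (2.76). Cell division, repair and nuclear genes with such a difference were PLK4 (4.86), HMMR (4.99), ASPM (4.48), BRCA2 (4.27), FANCI (2.78), NUP107 (4.33), CHD1 (3.78), SUZ12 (3.33) and NRIP1 (2.98). Signalling and cytokine genes were FOS (4.78), TGFBR1 (4.81), TBK1 (4.46), IL6ST (3.64), CXCL8 (4.60), IFI16 (2.44), HIF1A (2.49) and ZEB1 (4.49). Ribosomal, metabolic and transport genes were RPS21 (3.87), RPS28 (3.00), ATP5ME (2.63), FABP5 (2.38), SLC7A2 (2.14), SLC19A2 (2.36) and SLC39A10 (3.42), and the remaining falls were S100G (9.42), MTRNR2L12 (8.29), MTRNR2L8 (3.999), RGPD5 (5.42), RGPD6 (5.28) and RGPD8 (5.96).

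For 22 genes that rose relative to vehicle the difference was below 0. They included mitochondrial and metabolic genes, MT-ND3 (-3.21), MRPL17 (-1.56), UQCRQ (-1.95), PMVK (-3.01), EBP (-1.76), PKM (-1.56) and MT1F (-2.17), and epithelial and secreted genes, KRT18 (-1.74), ELF3 (-2.49), OVOL2 (-4.18), TNS4 (-1.58), S100A2 (-1.80), S100A4 (-2.66), S100A9 (-1.68), S100A10 (-1.98), LTB (-4.66), LFNG (-3.08) and BMP4 (-1.80). The others were RPS10 (-2.26), ZNF534 (-6.58), OTOL1 (-8.59) and MIR622 (-13.51). MIR622 had no read in any vehicle library, so its value depends on the prior count and is no measure of size. Of these 22, TNS4, ELF3, OVOL2 and S100A9 rose in both comparisons, and the difference is one of size.

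For 13 genes the difference ran in the direction of the change. The rises with a larger E2 effect under TNFα were CST2 (1.63), CST5 (4.14), KRT13 (3.39), MAB21L4 (3.65), F13A1 (2.33), ACKR3 (5.69), ADAM12 (2.66), IL1R2 (2.45), INHBB (1.58), ITGB2 (2.19), TGFA (2.33) and IFIT1 (1.715), and the fall was KRT81 (-1.71). For CST5, MAB21L4, ACKR3 and S100G all TNFα libraries had no read, so the fitted difference depends on the prior count and is no measure of size. XBP1 was not called relative to vehicle and differed by -1.55, and its level lay at 94.8–108 CPM with vehicle and 169.5–189 CPM with E2 alone, against 275–305 CPM with TNFα alone and 163–179.9 CPM when E2 was added to TNFα.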

How the results depend on the processing

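Of the counts of called genes, 3447 for E2 relative to vehicle, 628 for E2 under TNFα and 3593 for their difference, those that involve the vehicle libraries changed most. E2 relative to vehicle gave 1574 calls with GC content and length trends removed, 1668 with the GC trend alone removed and 1538 with 1 unwanted factor estimated from 20 housekeeping genes (RUV), of which 557 were among the 3447. The difference of effects gave 1557, 1658 and 971 calls under these settings. Without TMM scaling, by library size only, 17.4% of 3611 calls were higher, against 32.4% of 3447, and the median log2 fold change was -0.38 in place of -0.02. DESeq2's test, its size factors, other filters and a fit of the 6 libraries alone kept each count they gave within 1.5 times, the fit of the 6 libraries having no value for the difference. Leaving out each library in turn gave 3180 to 3650, 582 to 732 and 3257 to 3918 calls.

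Same-numbered libraries did not deviate together (correlations -0.48 to 0.47), so the numbers were not taken to pair the samples. With the replicate number as a block, 3453 genes were called relative to vehicle, 623 under TNFα and 3585 for the difference, and 1562 and 1554 for the first and last with the trends also removed.

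Of 120 named genes called relative to vehicle, 101 were called in the same direction with trends removed and 70 with the RUV factor. Reversed under RUV were CXCL8 (2.40), PSMC6 (2.23), HMMR (1.00), S100G (0.72), TBK1 (0.0057), SLC39A10 (1.32) and CST6 (-2.17). CST6 also reversed with trends removed (-0.56, and -0.59 with the block), as did SLC39A10 (0.025, and 0.0007 with the block). Values near 0 changed sign for EPCAM by library size (-0.30) and with a minimum of 10 counts per library (-0.066). Over the fits without a library, EPCAM ranged from -0.20 to 0.30 and VIM from -0.19 to 0.017. The cause of these reversals was not tested.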

Other observations

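A few of the largest changes relative to vehicle fell on short or repeated genes. MIR622 (hg38 chr13:90231182-90231277, plus strand), a microRNA gene, had no read in any vehicle library and read 67.9, 91.2 and 63.2 CPM in E2, at least 1065-fold higher against a floor of 3 counts per library. It also read 36.7, 32.5 and 39.4 CPM in TNFα and 48.9, 43.9 and 53.7 CPM in E2 + TNFα. OTOL1, which encodes otolin, had 11 reads in the vehicle libraries and 1115 in E2, a scaled ratio of 411 (95% exact interval for counting error only, 229 to 826), and read 6.42, 13.4 and 19.5 CPM in TNFα. The humanin-like gene MTRNR2L12, a copy of mitochondrial sequence, read 17.3, 13.7 and 9.91 CPM in vehicle and 0–0.0684 CPM in E2, and MTRNR2L8 read 18, 13.3 and 11 and 0.274, 1.28 and 0.0904 CPM. The RANBP2-like copies RGPD5, RGPD6 and RGPD8 read 36.2, 49.2 and 45.1, 36.2, 49.2 and 45.2 and 33.2, 44.6 and 40.9 CPM in the vehicle libraries and 0.821, 1.28 and 0.995, 1.03, 0.957 and 1.45 and 0.821, 1.91 and 0.723 CPM in E2, and they share most of their sequence, so that their separate counts are uncertain.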
